A study of Mus musculus with 2 samples.

Results

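Open chromatin was examined at 10 genes of the Notch pathway in the mouse mammary epithelial cell line NMuMG. The genes were the ligands Jag1, Jag2 and Dll1, the receptors Notch1, Notch2 and Notch3, the DNA-binding effector Rbpj, and the target genes Hes1, Hey1 and Heyl. A DNaseI-seq peak was assigned to a gene when it overlapped the gene body or lay within 50 kb of it. This rule took 29 of the 17784 peaks called with vehicle and 41 of the 22600 peaks called after TGFβ, around 10 of 22380 annotated protein-coding genes.

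DNaseI-seq finds places where chromatin is open enough for the nuclease DNaseI to cut. Both groups were NMuMG cells starved of serum and insulin for 6 h. One group then received TGFβ1 at 5 ng/ml for 2 h, and the other received the carrier of dilute acid and albumin for the same time. There was 1 peak list for each condition although the series text mentions duplicates, so the spread between cultures is unknown, no test was made, and treatment cannot be told apart from differences between the libraries. By the study's account the vehicle library was sequenced more deeply. The assay reads a population of cells, and a site open in more cells cannot be told apart from a site opened further in each cell. As a check of the line, 3 of 6 epithelial marker genes (Cdh1, Krt8 and Krt18, but not Epcam, Cldn3 or Cldn4) had a peak within 1000 bp of an annotated start in both lists, against 0 of 5 leukocyte or endothelial marker genes.

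Notch receptors are cut after they bind a Jagged or Delta ligand on a neighbouring cell. The freed intracellular domain enters the nucleus and joins the DNA-binding protein Rbpj, which without it keeps target genes repressed. Hes1, Hey1 and Heyl encode basic helix-loop-helix repressors and are classic targets, and in the mammary epithelium Notch signalling is known for its part in luminal cell fate.

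A peak is called shared when at least 1 bp overlaps a peak of the other list, and vehicle-only or TGFβ 2 h-only otherwise. The last terms say in which list a peak was called and not that the other condition had no signal. A promoter peak lies within 1000 bp of an annotated transcript start of any gene, and other peaks are distal. Distances are given from the start of the gene to the midpoint of the peak along the direction of transcription. The deposited score orders peaks within their own list, from 540 to a ceiling of 1000.

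The 10 genes had 15 TGFβ 2 h-only and 4 vehicle-only peaks, and 8 of the 15 were at Notch2. The TGFβ 2 h-only peaks made up 36.6% of the 41 peaks (Wilson 95% interval 23.6 to 51.9), beside 33.7% of the whole TGFβ 2 h list. The vehicle-only peaks made up 13.8% of the 29 vehicle peaks (5.50 to 30.6), beside 17.6% of the whole vehicle list. Both shares for the Notch genes were thus close to those of their lists. All intervals here cover the counting of peaks only and hold no variation between cultures or libraries.

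**Figure D1:**
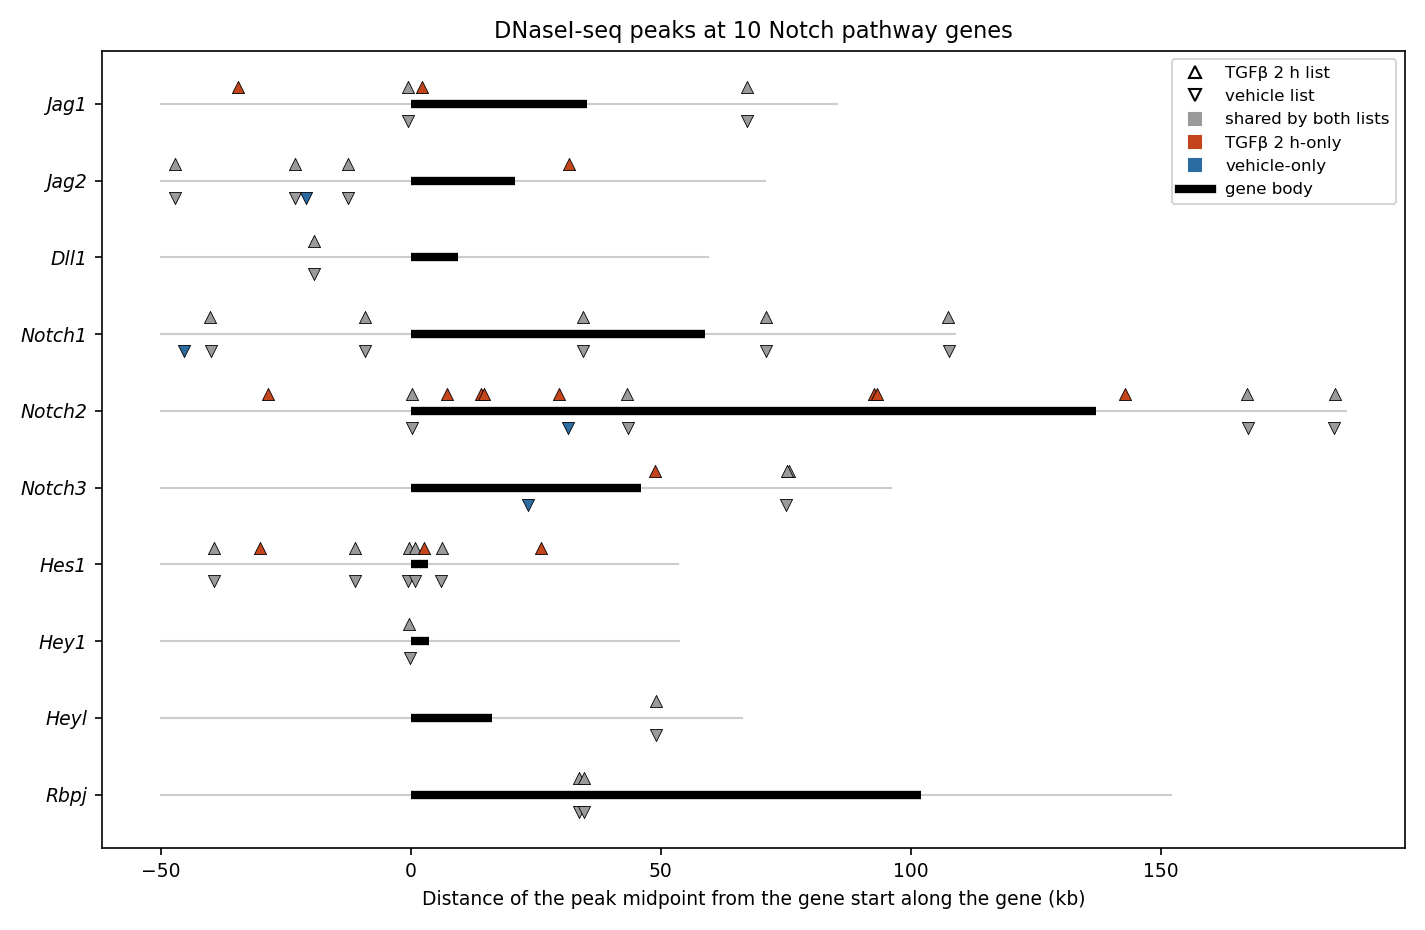
Position of every peak at the 10 genes, in kb from the gene start, with upward triangles for the TGFβ 2 h list and downward triangles for the vehicle list; black bars are gene bodies and grey lines the window of 50 kb on either side. Of the 15 TGFβ 2 h-only peaks, 8 are spread along and around Notch2, and 4 of the 10 genes have no unshared peak.

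Sequences from a few of the sites are shown first, as the central 200 bp of a peak on mm9 or the 200 bp before a start. The first set holds the TGFβ 2 h-only distal peaks that lie in a Notch gene or nearest to its start and whose central 200 bp hold the AP-1 letters. AP-1 is the dimer of Fos and Jun proteins, and capitals mark its letters, TGACTCA on either strand.

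Notch2 +29.64 kb, chr3:97847005-97847204 (+ strand): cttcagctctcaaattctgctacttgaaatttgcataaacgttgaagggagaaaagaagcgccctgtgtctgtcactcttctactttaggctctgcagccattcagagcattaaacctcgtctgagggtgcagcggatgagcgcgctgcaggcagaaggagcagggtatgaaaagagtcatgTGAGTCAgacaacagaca
Hes1 -30.18 kb, chr16:30034194-30034393 (+ strand): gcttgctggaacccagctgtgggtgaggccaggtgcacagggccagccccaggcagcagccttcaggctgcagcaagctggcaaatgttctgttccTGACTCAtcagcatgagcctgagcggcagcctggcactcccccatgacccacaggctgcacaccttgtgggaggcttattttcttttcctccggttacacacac
Hes1 +26.09 kb, chr16:30090458-30090657 (+ strand): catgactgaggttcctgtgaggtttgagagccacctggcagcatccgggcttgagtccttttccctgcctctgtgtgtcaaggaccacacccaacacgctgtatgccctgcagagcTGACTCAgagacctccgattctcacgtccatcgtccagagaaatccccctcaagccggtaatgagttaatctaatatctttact

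The second sequence set holds the 200 bp before the protein-coding starts of the target genes Hes1 and Hey1 that lay in a peak of both lists. Capitals mark GTGGGAA, letters that Rbpj is known to bind.

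Hes1 start, chr16:30065226-30065425 (+ strand): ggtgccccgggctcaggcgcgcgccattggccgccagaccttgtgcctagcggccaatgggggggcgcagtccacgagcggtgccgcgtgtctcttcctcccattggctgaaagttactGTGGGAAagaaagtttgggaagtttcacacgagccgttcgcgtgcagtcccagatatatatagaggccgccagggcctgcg
Hey1 start, chr3:8667040-8667239 (- strand): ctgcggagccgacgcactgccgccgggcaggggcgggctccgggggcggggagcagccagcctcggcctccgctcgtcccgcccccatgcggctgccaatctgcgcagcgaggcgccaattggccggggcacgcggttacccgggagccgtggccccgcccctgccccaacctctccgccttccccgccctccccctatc

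The letters GTGGGAA lay 81 bp before the start of Hes1 (position -81), and no match was found in the Hey1 window. In all, 4.10% of 45962 protein-coding transcript starts held these letters in the 200 bp before them. One more sequence comes from a shared peak upstream of Notch1, chosen after its values were seen because its central 200 bp held the letters of Rbpj and of AP-1, both in capitals.

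Notch1 -9.23 kb, chr2:26381309-26381508 (+ strand): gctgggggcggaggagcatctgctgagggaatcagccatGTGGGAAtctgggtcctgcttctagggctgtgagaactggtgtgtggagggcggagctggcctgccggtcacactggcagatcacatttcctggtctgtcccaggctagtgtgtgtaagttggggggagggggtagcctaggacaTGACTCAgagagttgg

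The ligands are described first. Jag1 encodes a Jagged ligand (ENSMUSG00000027276.7, chromosome 2, 136907192 to 136942380, minus strand). It had 2 peaks in the vehicle list and 4 in the TGFβ 2 h list. Within 1000 bp of its start lay a shared peak with the ceiling score of 1000 in both lists, 1018 bp wide with vehicle and 1124 bp after TGFβ. The second shared peak lay 67.18 kb downstream of the start, in an intron of the neighbouring 2210009G21Rik, and was 393 bp wide in both lists with scores of 785 with vehicle and 999 after TGFβ.

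Both TGFβ 2 h-only peaks of Jag1 were distal. One lay in a Jag1 intron 2.26 kb into the gene (136939931 to 136940317, score 658), 2.08 kb from the nearest vehicle peak. The other lay 34.60 kb upstream in intergenic DNA (136976726 to 136977231, score 822). The Jag1 start is the nearest protein-coding start over a much wider stretch than the 50 kb window. By nearest start Jag1 had 3 vehicle and 10 TGFβ 2 h peaks, of which 7 were TGFβ 2 h-only. Of these 7, 5 lay beyond the window, up to 537.82 kb upstream, where a TGFβ 2 h-only peak (137480001 to 137480396) had the ceiling score of 1000.

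Jag2, the other Jagged ligand (ENSMUSG00000002799.5, chromosome 12, 114146801 to 114167706, minus strand), had 4 peaks in each list and none in its body or at its start. The start of the neighbouring Nudt14 lay in a shared peak 12.55 kb upstream, and that of Btbd6 in another 47.12 kb upstream. A vehicle-only peak (114188347 to 114188944, score 770) lay 20.94 kb upstream of Jag2 at the annotated start of Gm17274. A TGFβ 2 h-only peak with a score of 850 lay 31.55 kb downstream of the Jag2 start and nearest to the start of Gm17723, and its central 200 bp held the AP-1 letters. None of the 8 Jag2 peaks had the Jag2 start as its nearest protein-coding start.

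Dll1, a Delta-like ligand (ENSMUSG00000014773.7, chromosome 17, 15504318 to 15513836, minus strand), had 1 peak in each list. They overlapped each other at the start of Fam120b, 19.33 kb upstream of Dll1, with widths of 1105 bp with vehicle and 1007 bp after TGFβ and a score of 1000 in both. No Dll1 start lay in a peak of either list. By nearest start, 2 TGFβ 2 h-only peaks and 1 vehicle-only peak were assigned to Dll1, all beyond the window, with TGFβ 2 h scores of 665 and 564 and a vehicle score of 791.

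Among the receptors, the counts went different ways. Notch1 (ENSMUSG00000026923.8, chromosome 2, 26313423 to 26372183, minus strand) had 6 vehicle peaks and 5 TGFβ 2 h peaks, and was the only one of the 10 genes with fewer peaks after TGFβ. All 5 of its TGFβ 2 h peaks were shared. None lay within 1000 bp of its 13 annotated starts. A vehicle-only peak (26417365 to 26417693, score 625) lay 45.35 kb upstream, near the edge of the window and nearest to the start of Egfl7.

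Of the 5 shared sites of Notch1, 3 were at the score ceiling in both lists. The intronic peak 34.40 kb into the gene had a score of 1000 in both lists and was 866 bp wide with vehicle and 681 bp after TGFβ. The peak 9.23 kb upstream, whose sequence is shown above, had scores of 700 with vehicle and 755 after TGFβ and widths of 524 and 694 bp. The peak 40.23 kb upstream had a score of 1000 with vehicle and 932 after TGFβ. The other pair lay at the starts of Inpp5e and Sec16a, neighbours of Notch1, all with scores of 1000.

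Notch2 (ENSMUSG00000027878.9, chromosome 3, 97817461 to 97954290, plus strand) had 5 vehicle peaks and 12 TGFβ 2 h peaks. Its start lay in a shared peak with a score of 1000 in both lists and nearly equal widths, 1143 bp with vehicle and 1103 bp after TGFβ. The difference between the lists was therefore away from the start. Of the 12 TGFβ 2 h peaks, 8 were TGFβ 2 h-only, all of them distal, and 6 of the 8 lay in introns of the gene.

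The first TGFβ 2 h-only peak at Notch2 lay 28.57 kb upstream (97788750 to 97789028, score 578). The next lay 7.21 kb into the gene (97824341 to 97824991, score 574). A close pair followed at 13.98 kb (97831155 to 97831729, score 849) and 14.71 kb (97831984 to 97832358, score 854). These were the highest scores among the 8, and none of the 8 reached the ceiling.

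The peak at 29.64 kb (97846950 to 97847261, score 713) held the AP-1 letters shown above, 82 bp after its midpoint. A vehicle-only peak (97848688 to 97848984, score 655) lay 1.43 kb from it in the same gene, at 31.38 kb. Thus 1 unshared peak of each list lay side by side there. A second close pair lay at 92.59 kb (97909757 to 97910338, score 550) and 93.30 kb (97910483 to 97911040, score 588). The last TGFβ 2 h-only peak lay 142.83 kb from the start, beyond the end of the gene (97960152 to 97960428, score 579), 4.45 kb from the start of Adam30. The scores of the last 3 were near the lowest score of the list, as were those at -28.57 kb (578) and 7.21 kb (574). Between 2.05% and 9.49% of all TGFβ 2 h peaks scored lower than each of these.

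**Figure D2:**
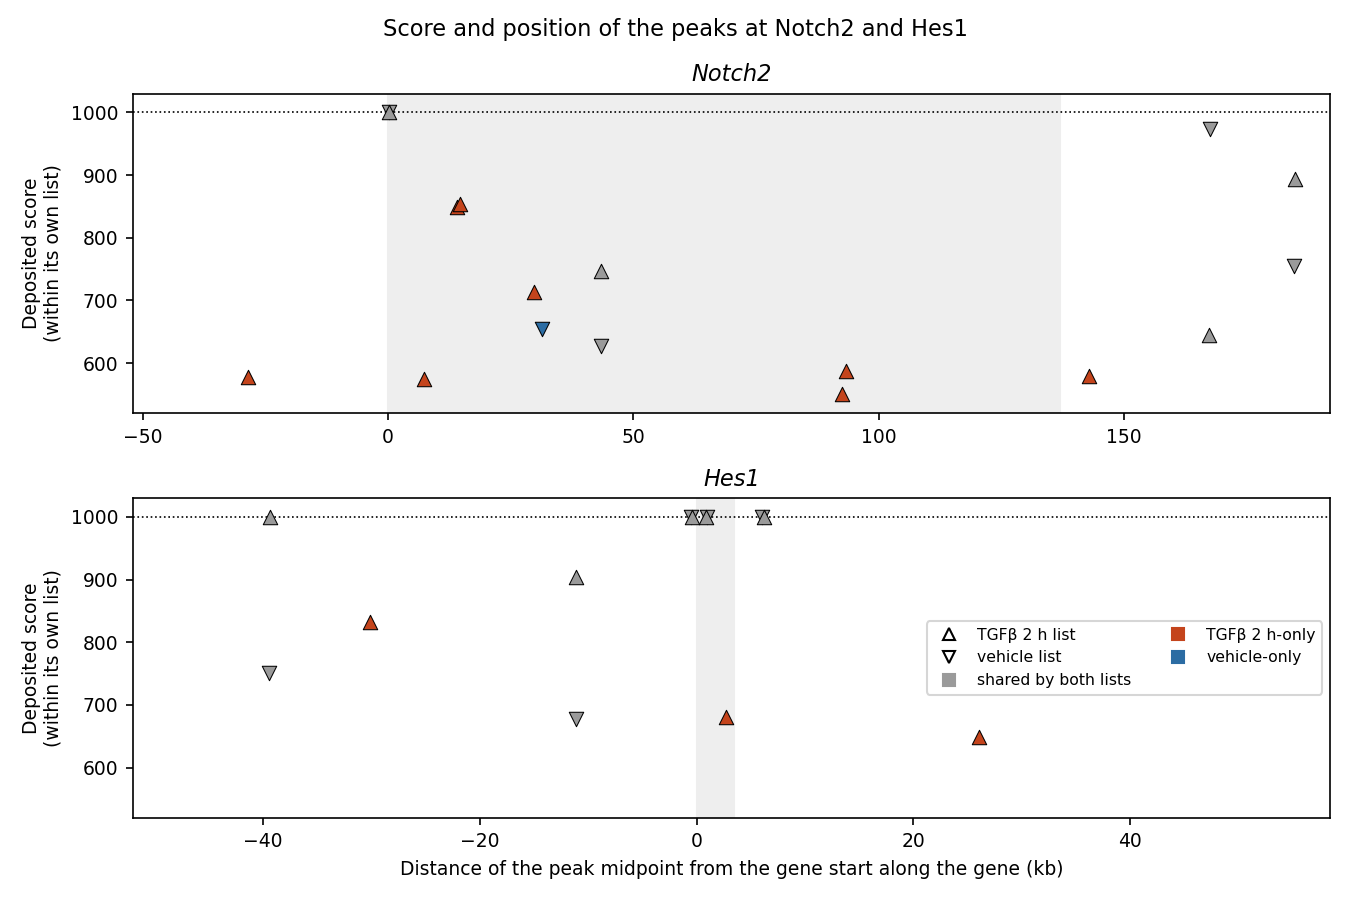
Deposited score of each peak, which orders peaks only within its own list, against distance from the gene start in kb at Notch2 and Hes1, with the gene body shaded and the ceiling of 1000 dotted. The TGFβ 2 h-only peaks of Notch2 score between 550 and 854 and those of Hes1 between 649 and 832, below the start peaks at 1000.

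The remaining shared peaks of Notch2 were distal. The intronic peak at 43.30 kb had scores of 627 with vehicle and 747 after TGFβ, with widths of 939 and 1217 bp. Downstream of the gene, the peak at 167.29 kb had scores of 974 with vehicle and 645 after TGFβ, and the peak at 184.90 kb had 755 and 893. The order of the scores thus differed between neighbouring sites of the same gene.

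A count of 8 TGFβ 2 h-only peaks was rare among genes. At least 8 were found in the windows of 0.0715% of the 22380 protein-coding genes (16 genes). Long genes have larger windows, and among the 1594 genes as long as Notch2 or longer the share was 0.690% (11 genes). The limit of 8 was taken from the value of Notch2 itself, so these shares place the gene and test nothing. The count fell to 3 when the TGFβ 2 h list was cut by score to the length of the vehicle list, and to 0 among peaks scoring at least the list's median. Notch2 also set the totals of the whole group. Without it the genes had 24 vehicle and 29 TGFβ 2 h peaks, and 24.1% of the latter were TGFβ 2 h-only (7 of 29, 12.2 to 42.1).

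Notch3 (ENSMUSG00000038146.7, chromosome 17, 32257765 to 32303825, minus strand) had 2 vehicle and 3 TGFβ 2 h peaks and none at its start. A vehicle-only peak (32280061 to 32280725, score 634) lay over a coding exon 23.43 kb into the gene. A TGFβ 2 h-only peak (32254678 to 32255134, score 667) lay 2.63 kb past the end of Notch3, in an intron of Gm17276. The third site was the start of Pdxk-ps, where 1 vehicle peak of 1229 bp was overlapped by 2 TGFβ 2 h peaks of 89 and 764 bp. The higher number of TGFβ 2 h peaks at Notch3 therefore came from that 1 vehicle peak being covered by 2 peaks.

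Rbpj, the DNA-binding partner of the cut receptor (ENSMUSG00000039191.6, chromosome 5, 53947018 to 54048684, plus strand), had 2 peaks in each list and no unshared peak. None lay at the most upstream start. Both lay within 1000 bp of internal transcript starts, 33.60 and 34.64 kb into the gene, and all 4 had a score of 1000. Their widths were 1096 and 645 bp with vehicle and 868 and 649 bp after TGFβ. By nearest start, 1 TGFβ 2 h-only peak (53821188 to 53821673, score 780) lay 125.59 kb upstream of Rbpj, beyond the window.

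Of the target genes, Hes1 (ENSMUSG00000022528.7, chromosome 16, 30064470 to 30067882, plus strand) had 5 vehicle and 8 TGFβ 2 h peaks. This was 7.74 TGFβ 2 h peaks per 100 kb of window, the highest density of the 10 genes, beside 5.07 for Notch2. All 5 vehicle peaks were shared. A pair of shared peaks lay at the annotated starts, at -0.41 and 0.90 kb from the most upstream one, with scores of 1000 in both lists. The second was narrow, 315 bp with vehicle and 349 bp after TGFβ, and covered the protein-coding start with the GTGGGAA letters shown above.

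The 3 TGFβ 2 h-only peaks of Hes1 lay on both sides of the gene and within it. The peak 30.18 kb upstream (30034119 to 30034470, score 832) held the AP-1 letters 4 bp before its midpoint. The peak 26.09 kb downstream of the start (30090388 to 30090729, score 649) held them 16 bp after its midpoint. The third (30066981 to 30067297, score 681) lay over a coding exon at 2.67 kb and counted as a promoter peak, since an annotated internal transcript start was within 1000 bp.

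Of the 3 shared distal peaks of Hes1, 2 had the higher score in the TGFβ 2 h list. At -39.42 kb the scores were 751 with vehicle and 1000 after TGFβ. At -11.17 kb they were 677 and 904, and the peak was 367 bp wide with vehicle and 555 bp wide after TGFβ. The peak at 6.18 kb, past the end of the gene, was at 1000 in both lists and was 1483 and 1199 bp wide.

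Hey1 (ENSMUSG00000040289.3, chromosome 3, 8663362 to 8667039, minus strand) had 1 shared peak, at its start, with a score of 1000 in both lists and widths of 1186 bp with vehicle and 1212 bp after TGFβ. Heyl (ENSMUSG00000032744.4, chromosome 4, 122910799 to 122927118, plus strand) also had 1 peak in each list, but that shared site was the start of Pabpc4, 49.12 kb away. The 3 target genes thus had different surroundings, with many peaks at Hes1, a start peak alone at Hey1 and no peak of its own at Heyl.

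**Figure D3:**
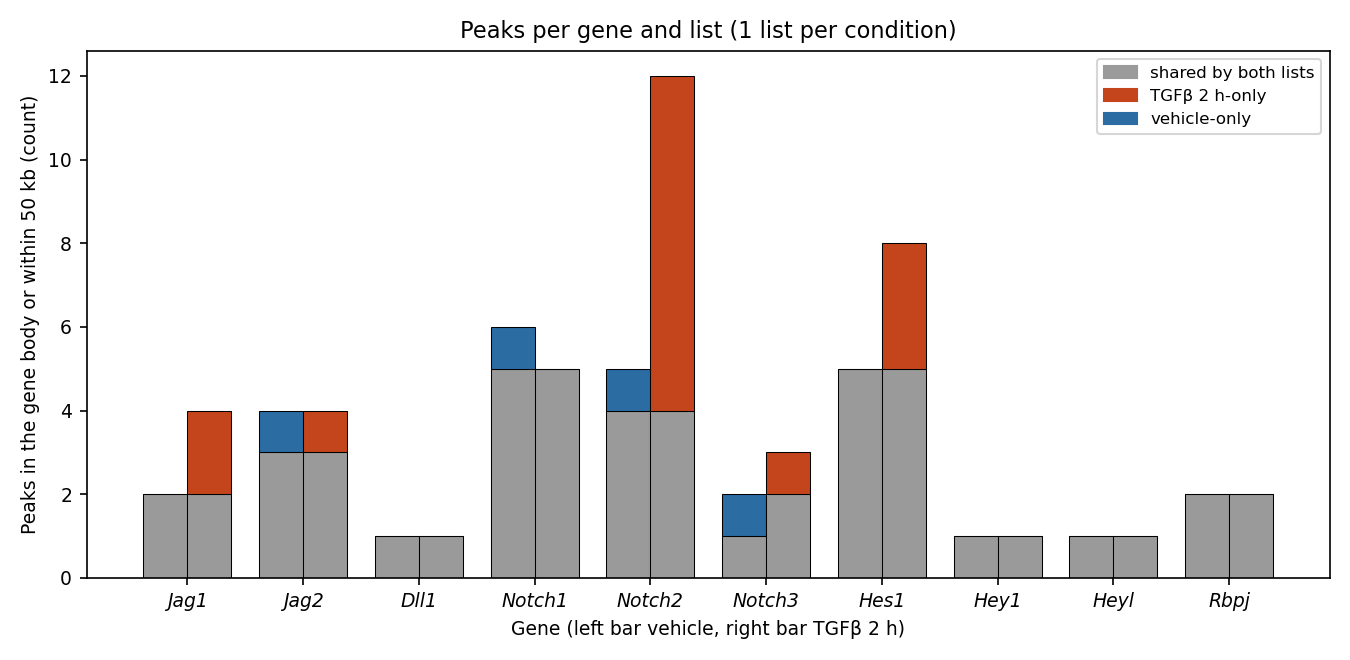
Number of peaks in the gene body or within 50 kb for each gene, with the vehicle list on the left and the TGFβ 2 h list on the right of each pair of bars. TGFβ 2 h peaks outnumber vehicle peaks at Jag1, Notch2, Notch3 and Hes1, equal them at 5 genes and are fewer at Notch1.

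Counted by gene, 4 had more peaks in the TGFβ 2 h list, 5 had equal numbers and 1 had fewer. At least 1 TGFβ 2 h-only peak was found at 5 of the 10 genes (Jag1, Jag2, Notch2, Notch3 and Hes1), beside 40.5% of all protein-coding genes. A peak of each list lay within 1000 bp of a start at 5 of 10 (Jag1, Notch2, Rbpj, Hes1 and Hey1), beside 43.8% of all protein-coding genes. The other 5, Jag2, Dll1, Notch1, Notch3 and Heyl, had no start peak in either list.

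The ratio of TGFβ 2 h to vehicle peaks was 1.41 for the 10 genes (41 and 29 peaks, exact binomial 95% interval 0.858 to 2.36), beside 1.27 for the whole lists. Without Notch2 it was 1.21 (0.679 to 2.17). Most of these peaks are the same shared sites counted in both lists, which the intervals do not take into account. For unshared peaks alone the ratio was 3.75 (15 and 4 peaks, 1.19 to 15.5), beside 2.43 for the whole lists. Without Notch2 it was 2.33 (7 and 3 peaks, 0.533 to 14.0). When every deposited row was counted in place of distinct peaks, the 10 genes had 117 rows after TGFβ and 121 with vehicle, a ratio of 0.967.

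The unshared peaks were mostly distal, as in the whole lists. Among distal peaks of the Notch genes 14 of 25 TGFβ 2 h peaks were TGFβ 2 h-only (56.0%, 37.1 to 73.3), beside 55.3% of all distal TGFβ 2 h peaks. Among promoter peaks it was 1 of 16 (6.25%, 1.11 to 28.3), beside 10.1%, and that 1 was the internal Hes1 peak. Of the 14 distal vehicle peaks 3 were vehicle-only (21.4%, 7.57 to 47.6), beside 31.6%. Each interval for the Notch genes included the value of the whole list.

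**Figure D4:**
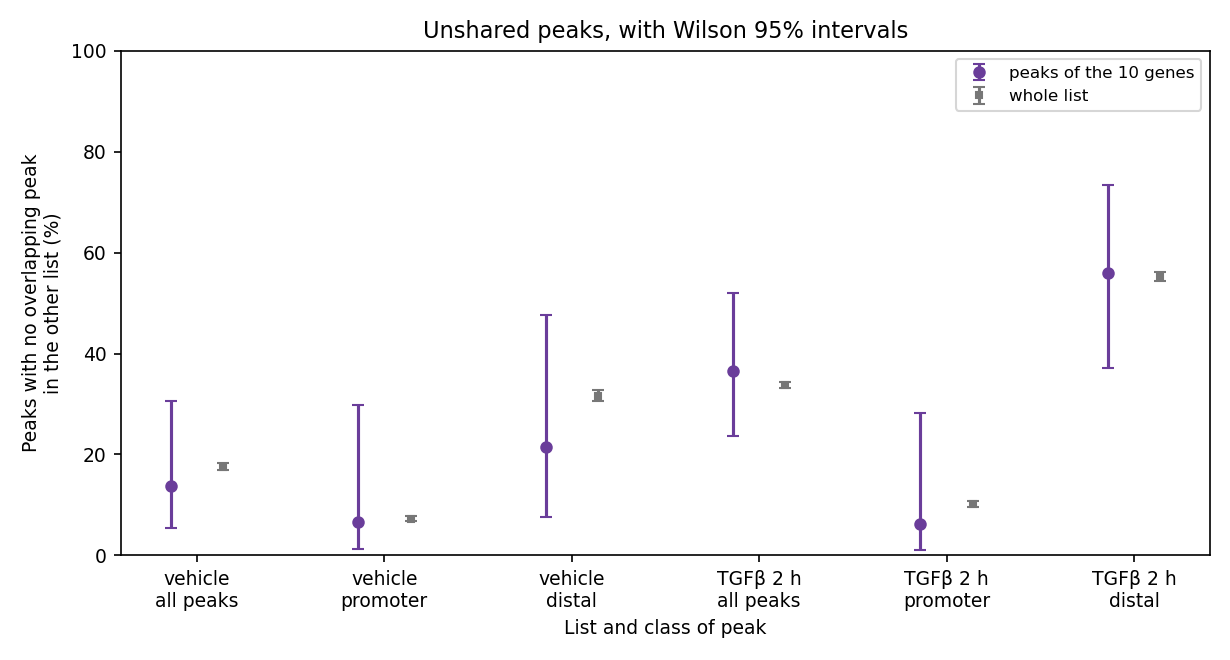
Percentage of peaks with no overlapping peak in the other list, for the peaks of the 10 genes and for the whole lists, with Wilson 95% intervals from counting alone. In each of the 6 classes the interval of the 10 genes covers the value of the whole list, as for distal TGFβ 2 h peaks with 56.0% beside 55.3%.

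Promoter peaks made up 51.7% of the vehicle peaks (15 of 29) and 39.0% of the TGFβ 2 h peaks (16 of 41) at the Notch genes, beside 57.6% and 47.9% of the whole lists. Many of these were at starts of neighbours. In each list 8 promoter peaks lay at the start of another gene and at no start of a Notch gene. The remaining promoter peaks, 7 with vehicle and 8 after TGFβ, were those of Jag1, Notch2, Rbpj, Hes1 and Hey1.

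The 15 TGFβ 2 h-only peaks were then described by score, width and location. Their scores lay between 550 and 854 with a median of 667, beside a median of 669 for all TGFβ 2 h-only peaks, and 0 of 15 reached the ceiling. They were narrow, from 277 to 651 bp with a median of 387 bp, beside 436 bp for all TGFβ 2 h-only peaks and 674 bp for the shared TGFβ 2 h peaks of the same genes. By location 8 lay in introns, 6 in intergenic DNA and 1 over a coding exon. The Notch gene itself had the nearest protein-coding start for 11 of the 15. The distance to the nearest vehicle peak ran from 1.43 to 49.1 kb with a median of 19.1 kb, and 0 of 15 lay within 1 kb of one. A gap above 0 is what the overlap rule selects, and width bears on overlap too, so both are descriptions only.

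The shared peaks were compared as 24 one-to-one pairs. After TGFβ the peak was narrower in 12 pairs (50.0%, 31.4 to 68.6) and the wider in 11, beside 70.9% narrower over all pairs of the lists. The median width ratio was 0.983 at the Notch genes and 0.906 over all pairs. The narrowest relative to vehicle were peaks at the Nudt14 start near Jag2 (821 and 506 bp) and upstream of Notch1 (1084 and 667 bp). The widest relative to vehicle were the distal peak 11.17 kb upstream of Hes1 and that 9.23 kb upstream of Notch1.

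**Figure D5:**
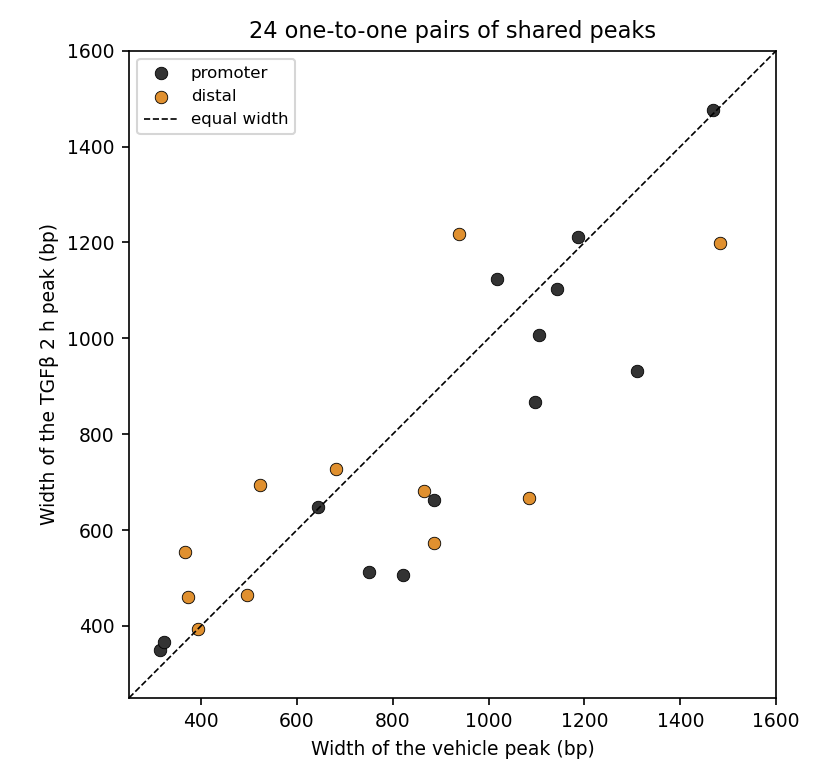
Width in bp of the TGFβ 2 h peak against that of the vehicle peak for the 24 one-to-one pairs at the Notch genes, with promoter and distal pairs coloured and a dashed line of equal width. The points fall on both sides of the line, with 12 narrower and 11 wider after TGFβ.

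Scores could be ordered in the 10 pairs that were not at the ceiling in both lists. The score was higher in the TGFβ 2 h list in 8 of these 10 (80.0%, 49.0 to 94.3), beside 52.1% over all such pairs. The 8 were those at Jag1 (67.18 kb), Jag2 (-23.20 and -47.12 kb), Notch1 (-9.23 kb), Notch2 (43.30 and 184.90 kb) and Hes1 (-39.42 and -11.17 kb). The exceptions were Notch1 at -40.23 kb and Notch2 at 167.29 kb. Scores were set within each list, and the lists differ in how many peaks reach the ceiling. By the share of its own list that scored lower, the TGFβ 2 h peak was placed higher in 9 of the 10 (90.0%, 59.6 to 98.2), beside 69.0% over all such pairs. Notch1 at -40.23 kb changed sides, with 46.8% of the list below it with vehicle and 50.4% after TGFβ, and Notch2 at 167.29 kb did not. Ties at the ceiling limit this share to at most 46.8% with vehicle and 55.7% after TGFβ. A vehicle peak at the ceiling is thus placed below every TGFβ 2 h peak above 46.8%, so this order leans toward the TGFβ 2 h list. Neither order is a measured gain of accessibility.

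Letters of 4 motifs were counted on both strands in the central 200 bp of each peak. AP-1 letters were in 4 of the 14 distal TGFβ 2 h-only peaks (28.6%, 11.7 to 54.6), at Jag2, Notch2 and Hes1, beside 27.2% of all distal TGFβ 2 h-only peaks. They were in 2 of the 11 distal shared peaks of the TGFβ 2 h list (18.2%, 5.14 to 47.7), upstream of Jag2 and Notch1, beside 23.4% of all distal shared TGFβ 2 h peaks. Of the 3 distal vehicle-only peaks 0 held them (0 to 56.1%), beside 7.73% of all distal vehicle-only peaks.

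Rbpj letters (GTGGGAA) were in 5 of the 41 TGFβ 2 h peaks (12.2%, 5.32 to 25.5), beside 4.55% of the whole list. These were the shared peaks at the Hes1 protein-coding start, at an internal start of Rbpj, upstream of Notch1 and far downstream of Jag1, and the TGFβ 2 h-only peak near the end of Notch3. TEAD letters (GGAATGT, which can overlap the Rbpj letters at their end) were in 2 of 41, at Hes1 (-39.42 kb) and Notch1 (-40.23 kb), beside 3.30%. The palindrome GTCTAGAC of the SMAD proteins was in 0 of 41 (interval 0 to 8.57%), beside 0.332% of the list. In the vehicle list, Rbpj letters were in 4 of the 29 peaks (13.8%, 5.50 to 30.6), among them the vehicle-only peak near Jag2. The share for these genes was thus similar in both lists. Among their distal TGFβ 2 h-only peaks it was 1 of 14 (7.14%, 1.27 to 31.5), beside 4.97% of all such peaks. A match of letters is a description and not a bound site.

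The wider pathway was counted over 36 other genes, among them ligands, targets, Maml coactivators, corepressors, proteases and glycosyltransferases. Their windows held 144 distinct vehicle peaks, with 15 vehicle-only (10.4%, 6.41 to 16.5, beside 17.6% of the whole list). They held 171 after TGFβ, with 42 TGFβ 2 h-only (24.6%, 18.7 to 31.5, beside 33.7%). Promoter and distal peaks were not separated here, so these shares are not set against a like mix of peaks. Over the whole TGFβ 2 h list 10.1% of promoter and 55.3% of distal peaks were TGFβ 2 h-only. By gene, 15 had more TGFβ 2 h peaks, 15 had equal numbers and 6 had fewer, and 19 had at least 1 TGFβ 2 h-only peak (52.8%, 37.0 to 68.0, beside 40.5% of all protein-coding genes). A start peak in both lists was found at 26 of the 36 (72.2%, 56.0 to 84.2, beside 43.8%).

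Values for single genes varied within their groups. Spen, a corepressor of Rbpj, had 7 vehicle and 11 TGFβ 2 h peaks with 3 TGFβ 2 h-only, and Ctbp1, whose product is part of repressor complexes, had 1 and 3 with 2. Maml3, a coactivator of the Notch complex and a gene of 417 kb, had 11 and 16 with 7 TGFβ 2 h-only, while Maml1 and Maml2 had none.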

How the data were processed

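NMuMG cells of 2 samples, grouped by their titles, gave 1 peak list each. The authors mapped reads to mm9 and called peaks with MACS2 2.1.2 (submitters' processing notes, which also name deepTools); options for DNaseI-seq are not stated. The deposited whole-number score, 540 to 1000 with 53.2% of vehicle and 44.3% of TGFβ 2 h peaks at the ceiling, orders peaks within a list and was also set side by side at shared sites. Read depth was not used. Rows sharing an interval (3.96 per peak with vehicle, 3.03 after TGFβ) were counted once.

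Peaks were placed on NCBIM37 with GENCODE M1 models and compared by overlap of 1 bp or more. The midpoint gave each peak's place in a gene. Exact letters were searched in 200 bp around each midpoint. Coordinates are 1-based. Python 3.11.15, pandas 2.3.3, scipy 1.17.1 and pysam 0.24.0 were used, and the overlap code was checked on simulated intervals. Shares have Wilson 95% and ratios exact binomial 95% intervals.

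The members, gene lists and motifs were chosen with earlier results of these data known. Named regions were start peaks of the 10 genes, every peak unique to vehicle, and those unique to TGFβ in a gene's body or nearest its start; other shared peaks, and the peaks unique to TGFβ near Gm17723 and Adam30, were named after their values were seen. Alternatives changed the overlap, peaks kept, counting unit, window, promoter and motif window. Some genes of the wider pathway enter its totals but are not reported here singly.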

Additional observations from a re-analysis of the deposited data

How the results depend on the processing

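Over 84 alternative values of the group summaries, 76 were inside the reported value's 95% interval (for counts, within 1.5 times), 7 were outside it and 1 reversed. The intervals rest on few peaks and are wide, so a value inside one says little about stability. TGFβ 2 h-only shares of 24.1% without Notch2 and 50.0% by nearest start, beside the reported 36.6%, both counted as inside. Leaving out Notch2 was chosen after seeing the data. The reversal was the ratio of TGFβ 2 h to vehicle peaks over deposited rows, 0.967, although it lay inside the interval of 0.858 to 2.36. Dropping peaks that scored under their list's median (1000 with vehicle, 927 after TGFβ) gave a TGFβ 2 h-only share of 19.0% (4 of 21, beside 25.2% of the whole list) and a vehicle-only share of 0% (0 of 16, which allows up to 18.8%, beside 11.4%). It left 3 genes with a TGFβ 2 h-only peak and removed all 8 such peaks of Notch2. Within gene bodies alone, the distal TGFβ 2 h-only share was 77.8% (7 of 9), with 6 of the 7 at Notch2 and 1 at Jag1. The same share over the bodies of all genes was not computed, so this value has no background beside it. With Hes1, whose peak there is a promoter peak, 3 genes had a TGFβ 2 h-only peak in the body. A window of 10 kb gave AP-1 letters in 11.1% of distal TGFβ 2 h-only peaks (1 of 9), and leaving out Notch2 gave 50.0% (3 of 6). Assignment by nearest protein-coding start gave a promoter share of 21.1% (8 of 38).

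Among counts for single genes, 23 of 100 values moved. At Notch2 the 8 TGFβ 2 h-only peaks were 3 when the longer list was cut to the length of the vehicle list, 5 within 50 kb of the start, and 9 with a reciprocal overlap of 50%. The cause of the moves was not tested. No paired analysis was possible because the pair of lists carries no replicates to match. The number of lists limits every comparison.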
